A study of Arabidopsis thaliana with 6 samples.

Results

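The 42 genes described here are nuclear Arabidopsis thaliana genes for the light-harvesting antennae, the photosystems, the electron carriers between and after them, the Rubisco small subunit and Rubisco activase. They were taken by locus, out of 33977 gene IDs counted in each library, and the rule for them uses the function of the gene and no measured value. They were nonetheless chosen with earlier results of these data known. The list holds 4 antenna genes of photosystem I, 12 antenna genes of photosystem II, 6 subunit genes of photosystem II, 9 subunit genes of photosystem I, 6 electron carrier genes and 5 Rubisco genes. Each was compared between whole plants grown without and with caesium chloride (CsCl).

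All plants were wild type of the Col-0 ecotype, 10 days old, raised at 22 °C with 16 h of light and 8 h of dark on half-strength MS, a standard plant nutrient medium. The 3 Mock samples had this medium alone, and the 3 CsCl samples had 1.5 mM CsCl in it from sowing. Caesium is an alkali metal that plants take up through potassium transport, and the comparison asks which transcripts differ when it is present throughout seedling growth. Poly(A) mRNA was sequenced from bulk RNA, so fewer green cells and less RNA per green cell cannot be told apart. Separate plates or sowings are not stated for the replicates, so each p-value is set against a spread that may be partly or wholly technical.

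The antenna proteins, LHCA for photosystem I and LHCB for photosystem II, bind chlorophyll and pass absorbed light energy to the reaction centres. Photosystem II splits water, electrons then pass through the cytochrome b6f complex and plastocyanin to photosystem I, and ferredoxin and its reductase carry them on to NADPH. Rubisco fixes carbon dioxide with large subunits encoded in the chloroplast and small subunits (RBCS) encoded in the nucleus, and Rubisco activase (RCA) keeps it free of inhibitory sugar phosphates. Transcripts of these nuclear genes are among the most abundant in green tissue and are known to respond to light, the circadian clock and signals from the chloroplast.

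Several members are near copies of each other, and the 2 families with the largest differences between the groups also hold the closest copies. Coding sequences from the TAIR10.1 genome show how little separates them. RBCS3B, RBCS2B and RBCS1B lie side by side on the minus strand of chromosome 5, at chr5:15376988-15378642, chr5:15380907-15382071 and chr5:15383167-15385320. In their coding sequences RBCS1B and RBCS2B were 97.3% identical, RBCS1B and RBCS3B 96.7% with an unbroken identical run of 230 bases, and RBCS2B and RBCS3B 96.9%. RBCS1A, alone at chr1:25048158-25049667, was 90.4% to 90.6% identical to the 3 others. A stretch of the 3 neighbouring copies is shown because reads from it separate them only at the capitals, which mark the 10 positions where the copies differ (coding bases 61 to 150).
RBCS1B: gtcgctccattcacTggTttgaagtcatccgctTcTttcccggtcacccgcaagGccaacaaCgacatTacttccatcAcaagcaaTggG
RBCS2B: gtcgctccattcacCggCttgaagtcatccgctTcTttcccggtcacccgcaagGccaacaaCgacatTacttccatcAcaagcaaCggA
RBCS3B: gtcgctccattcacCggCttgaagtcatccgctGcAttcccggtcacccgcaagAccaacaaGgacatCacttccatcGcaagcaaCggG

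The 5 LHCB1 genes lie in 2 clusters. LHCB1.2 (chr1:10472280-10473502, minus strand), LHCB1.1 (chr1:10474656-10475969, minus strand) and LHCB1.3 (chr1:10477885-10479114, plus strand) were 95.6% to 96.4% identical to each other. LHCB1.5 (chr2:14522524-14523568, minus strand) and LHCB1.4 (chr2:14524607-14525918, plus strand) were 92.5% identical. The same aligned stretch is shown for all 5, with capitals at the 22 positions that differ among them; it starts at coding base 184 in LHCB1.1, LHCB1.2 and LHCB1.3, at 181 in LHCB1.4 and at 178 in LHCB1.5.
LHCB1.1: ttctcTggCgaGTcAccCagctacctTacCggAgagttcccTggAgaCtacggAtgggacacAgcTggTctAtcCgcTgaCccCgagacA
LHCB1.2: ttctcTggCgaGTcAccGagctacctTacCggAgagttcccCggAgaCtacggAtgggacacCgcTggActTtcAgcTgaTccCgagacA
LHCB1.3: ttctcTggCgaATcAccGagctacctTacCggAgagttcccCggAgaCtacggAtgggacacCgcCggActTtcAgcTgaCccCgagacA
LHCB1.4: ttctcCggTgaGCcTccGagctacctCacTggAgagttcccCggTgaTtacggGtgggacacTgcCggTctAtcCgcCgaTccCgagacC
LHCB1.5: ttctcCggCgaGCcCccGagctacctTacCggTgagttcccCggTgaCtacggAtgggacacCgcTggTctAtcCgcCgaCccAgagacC
How reads that match several copies were counted is not given in the sources used here, so values of single copies in these families are uncertain, and sums over copies are given beside them.

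Many members were among the most abundant genes of the libraries. Each library held between 32075069 and 44108369 counts, and the 42 genes held 14.6%, 14.9% and 16.1% of them in Mock and 14.7%, 15.0% and 14.3% in CsCl. The means were 15.2% ± 0.794 (SD, n = 3) and 14.7% ± 0.328 (SD, n = 3), and the ranges of the groups overlapped. Of the 10 most abundant genes in Mock 7 were members, as were 27 of the 50 and 34 of the 100 most abundant. RCA (AT2G39730) was the most abundant gene of all in CPM, the counts scaled to a common library size.

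No member passed the test between CsCl and Mock. Of the 42, 41 had enough counts to be tested, and edgeR's quasi-likelihood test with Benjamini-Hochberg adjustment over 21005 genes called 0 of them at an adjusted p under 0.05, against 454 genes called overall (2.16%), of which 277 were lower in CsCl (1.32%). At an unadjusted p under 0.05, 8 of 41 members were lower (19.5%) and 0 higher, against 14.4% of all genes in either direction and 7.75% lower. These 8 were LHCB1.3, LHCB1.4, PSBO2, PSBR, PSBS, LFNR1, RBCS1B and RBCS3B. DESeq2 called 2 members lower (RBCS1B and RBCS3B) and limma-voom 1 (RBCS1B). The log2 fold change (CsCl over Mock) was below 0 for 36 of the 41 members (87.8%), against 48.6% of all genes tested. Its median was -0.073 (0.951-fold) over the members and 0.005 over all genes tested. Among the 10% of genes with the highest mean level (2100 genes), 63.7% were below 0 with a median of -0.033. An unadjusted p under 0.05 in either direction was found in 20.4% of them, with 346 of the 2100 lower in CsCl.

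The intervals of the members were narrow. The standard error of the log2 fold change lay between 0.0566 and 0.0982, and all 41 of the 95% intervals lay within 1.5-fold in either direction. The lowest bound was 0.708-fold, for LHCB1.4, and the highest 1.23-fold, for PSAG. The intervals of 33 members covered 0.

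**Figure D1:**
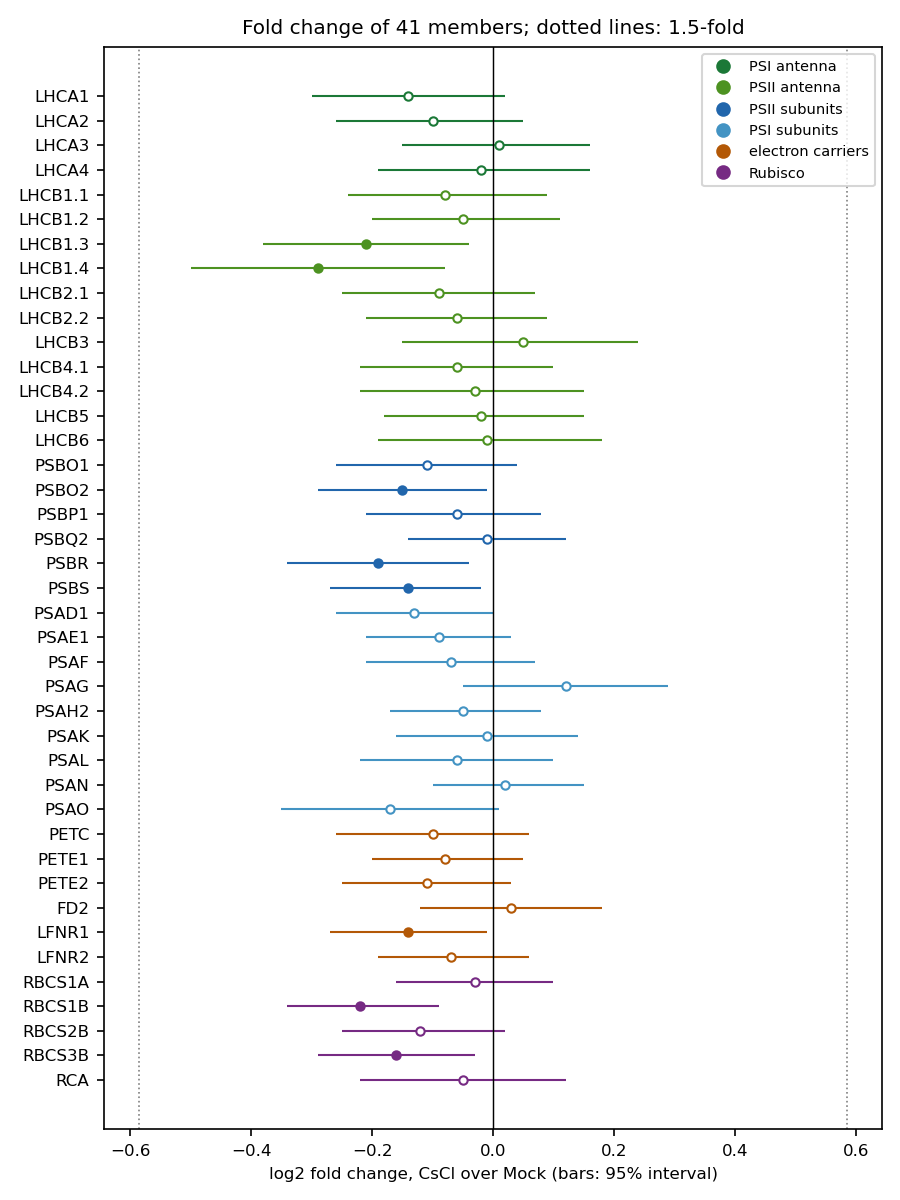
Log2 fold change (CsCl over Mock, x axis) of the 41 tested members (y axis, coloured by complex) with 95% intervals from the edgeR fit; filled points have an unadjusted p under 0.05, open points do not, and dotted lines mark 1.5-fold. Points of 36 members lie below 0, all 8 filled points are on that side, and no interval reaches a dotted line.

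Libraries of a group differed from each other about as much as the groups did. Taken as log2 CPM minus the Mock mean, the median over members was -0.09, -0.039 and 0.126 in Mock 1 to 3 and -0.082, -0.017 and -0.122 in CsCl 1 to 3. Mock 3 was the highest Mock library for 38 of 41 members, and CsCl 3 was the lowest CsCl library for 35. With Mock 3 left out the median of the members was -0.024 and 25 of 41 were below 0. With Mock 1 left out it was -0.115, with 40 of 41 below 0. With no scaling factors between libraries it was -0.033, with 29 of 41 below 0, while the median of all genes tested moved to 0.044. The coefficient of variation of the members had a median of 8.73% in Mock and 3.45% in CsCl.

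**Figure D2:**
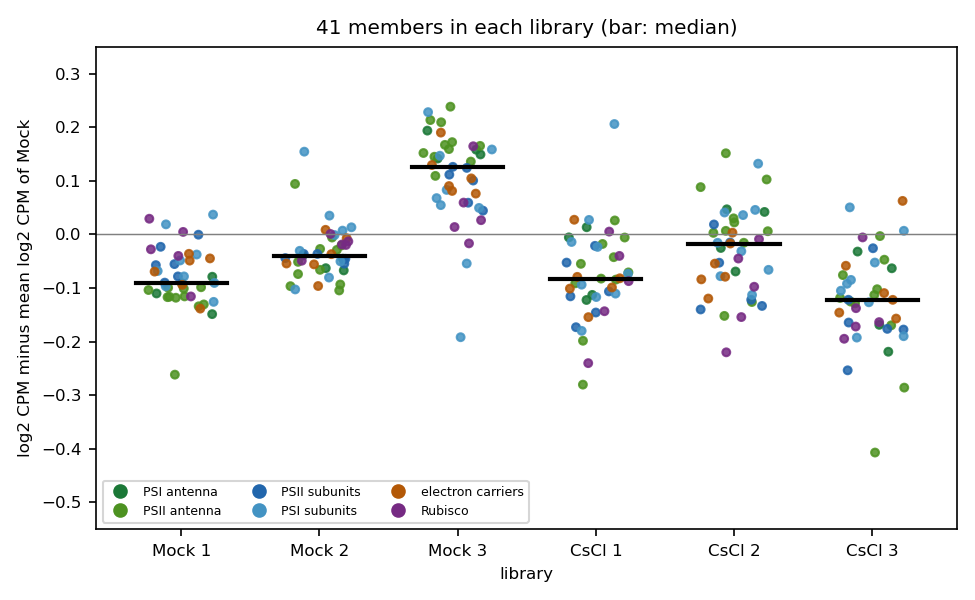
Log2 CPM of each of 41 members minus its own Mock mean (y axis) in each of the 6 libraries (x axis); points are members coloured by complex, bars are medians. The median of Mock 3 is 0.126 and those of the 5 other libraries lie between -0.122 and -0.017, so Mock 1 and Mock 2 sit among the CsCl libraries.

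In 11 of the 41 members (26.8%) the 3 CsCl libraries lay wholly below the 3 Mock libraries, and in 0 wholly above. Over all genes tested, the groups did not overlap in 19.8%, and in 9.75% CsCl was the lower group. In the most abundant 10% of genes the share without overlap in either direction was 25.5%, and in 399 of these 2100 genes CsCl was the lower group. The 11 members were PSBO2, PSBR and PSBS of photosystem II, PSAD1 and PSAE1 of photosystem I, the carriers PETE2, LFNR1 and LFNR2, and RBCS1B, RBCS2B and RBCS3B. None of the 15 tested antenna genes was among them.

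Rubisco genes had a median log2 fold change of -0.12, and all 5 were below 0. RBCS1B (AT5G38430) had 4068, 4002 and 4094 CPM in Mock and 3433, 3481 and 3543 CPM in CsCl. The groups stood far apart beside their spread, and this member had the smallest p of all. It was 0.860-fold (log2 -0.22, SE 0.0585, 95% interval -0.34 to -0.09), with an unadjusted p of 0.00224 and an adjusted p of 0.0772 in edgeR's quasi-likelihood test. The adjusted p was 0.000408 in DESeq2 and 0.0408 in limma-voom, both under 0.05. RBCS3B (AT5G38410) had 9299, 9486 and 9656 CPM in Mock and 8583, 8518 and 8415 CPM in CsCl, again without overlap (log2 -0.16, SE 0.0603, edgeR adjusted p = 0.242; DESeq2 adjusted p = 0.0354).

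RBCS2B (AT5G38420) had 4411, 4474 and 4726 CPM in Mock and 4269, 4238 and 4049 CPM in CsCl (log2 -0.12, edgeR adjusted p = 0.421). Every CsCl library was below every Mock library here too. RBCS1A (AT1G67090), the most abundant small-subunit gene, had 11286, 10960 and 10932 CPM in Mock and 10755, 10719 and 11016 CPM in CsCl. Its groups overlapped, and its log2 fold change of -0.03 had a 95% interval of -0.16 to 0.10. RCA had 13937, 14596 and 16926 CPM in Mock and 15157, 15009 and 13727 CPM in CsCl (log2 -0.05, 95% interval -0.22 to 0.12), with overlapping groups.

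Because the 3 neighbouring RBCS copies are so alike, their counts were also summed before the fit. The sum was 17779, 17962 and 18476 CPM in Mock and 16286, 16238 and 16006 CPM in CsCl (log2 -0.16, 95% interval -0.29 to -0.03, edgeR adjusted p = 0.246). The sum showed no overlap and did not pass the test. Within each library, the ratio of this sum to RBCS1A was 1.58, 1.64 and 1.69 in Mock and 1.51, 1.51 and 1.45 in CsCl. The ratio of RBCS1B to RBCS1A was 0.360, 0.365 and 0.374 in Mock and 0.319, 0.325 and 0.322 in CsCl. Both ratios were lower in all 3 CsCl libraries than in any Mock library; they do not depend on the scaling of libraries, and they were chosen after the values of the copies had been seen, so no test is given.

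The region upstream of the annotated start was read for motifs known from light-regulated plant promoters, the G-box (CACGTG) and the I-box (GATAAG), on both strands. In the 250 bases before the TAIR10.1 gene start, a G-box stood in 6 of 42 members (14.3%) against 6.49% of 27443 nuclear protein-coding genes, and an I-box in 14 (33.3%) against 12.3%. CCAAT stood in 28 members (66.7%) against 46%, AAAAATCT, known to bind the clock protein CCA1, in 5 (11.9%) against 6.69%, and the evening element AAATATCT in 0 against 4.79%. The windows of RBCS2B (chr5:15382072-15382321, minus strand) and RBCS1B (chr5:15385321-15385570, minus strand) are shown because, of these neighbouring copies, the first held such matches and the second none, with G-box and I-box letters in capitals.
RBCS2B: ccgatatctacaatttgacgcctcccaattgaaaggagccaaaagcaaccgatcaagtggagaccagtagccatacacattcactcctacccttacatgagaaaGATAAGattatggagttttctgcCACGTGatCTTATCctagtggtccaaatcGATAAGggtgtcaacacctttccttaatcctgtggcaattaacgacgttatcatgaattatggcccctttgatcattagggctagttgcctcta
RBCS1B: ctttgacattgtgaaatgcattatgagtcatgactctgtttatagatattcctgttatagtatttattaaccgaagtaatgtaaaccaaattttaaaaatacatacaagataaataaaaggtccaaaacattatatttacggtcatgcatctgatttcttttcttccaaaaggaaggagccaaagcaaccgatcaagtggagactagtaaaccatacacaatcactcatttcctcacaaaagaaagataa
The RBCS2B window held 1 G-box and 3 I-boxes, and the RBCS1B window neither. The annotated starts are not at matched places: the first coding base lies 93 bases after the start in RBCS2B and 165 in RBCS1B, 336 in RBCS3B and 418 in RBCS1A. In the 250 bases before the first coding base, RBCS1B held 0 G-boxes and 2 I-boxes, RBCS2B and RBCS3B each 1 and 3, and RBCS1A 0 and 1. A match is a description of the letters and not of a bound site.

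Among the photosystem II subunits all 6 were below 0, with a median log2 fold change of -0.13 and 3 at an unadjusted p under 0.05. PSBR (AT1G79040), a small protein at the lumenal side of the complex, had 2990, 3103 and 3473 CPM in Mock and 2822, 2901 and 2669 CPM in CsCl. CsCl was below Mock in every library (log2 -0.19, SE 0.0698, 95% interval -0.34 to -0.04, edgeR adjusted p = 0.223). PSBO2 (AT3G50820), 1 of 2 genes for the manganese-stabilising protein of water splitting, had 1590, 1593 and 1788 CPM in Mock and 1496, 1520 and 1463 CPM in CsCl (log2 -0.15, edgeR adjusted p = 0.302).

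PSBS (AT1G44575), which triggers the heat dissipation of excess light energy, had 1641, 1592 and 1693 CPM in Mock and 1515, 1489 and 1452 CPM in CsCl (log2 -0.14, edgeR adjusted p = 0.269). Neither PSBO2 nor PSBS overlapped between the groups. PSBQ2 (AT4G05180), an extrinsic protein of the water-splitting side, had 1310, 1298 and 1387 CPM in Mock and 1312, 1348 and 1307 CPM in CsCl. It overlapped fully and had the smallest difference of the complex (log2 -0.01, 95% interval -0.14 to 0.12). PSBO1 (AT5G66570), the larger of the PSBO pair at 4866 ± 374 CPM in Mock and 4509 ± 174 CPM in CsCl (SD, n = 3), and PSBP1 (AT1G06680), another extrinsic protein, at 3415 ± 210 and 3266 ± 122 CPM, had log2 fold changes of -0.11 and -0.06. The ratio of PSBO1 to PSBO2 counts was 2.89, 2.95 and 2.96 in Mock and 3.02, 3.08 and 2.96 in CsCl, with the highest Mock ratio and the lowest CsCl ratio equal at 3 digits.

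The photosystem II antenna had a median log2 fold change of -0.06 over 11 tested genes, 10 of them below 0 and none without overlap. LHCB1.4 (AT2G34430) had 1808, 2314 and 2434 CPM in Mock and 1785, 1951 and 1635 CPM in CsCl. Mock 1 lay inside the CsCl range while the other Mock libraries lay above it. Its fold change was the lowest of all members, 0.819-fold (log2 -0.29, SE 0.0982, 95% interval -0.50 to -0.08, edgeR adjusted p = 0.183), and without Mock 1 it was -0.41 with an adjusted p of 0.00978, the only call of a member made by leaving out a library. LHCB1.3 (AT1G29930) had 13427, 14409 and 16417 CPM in Mock and 12811, 13470 and 12057 CPM in CsCl (log2 -0.21, SE 0.0797, edgeR adjusted p = 0.242). CsCl 2 lay just above Mock 1, so these groups overlapped by a narrow margin.

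LHCB1.1 (AT1G29920) and LHCB1.2 (AT1G29910), the other copies on chromosome 1, had log2 fold changes of -0.08 and -0.05 from 6246 ± 640 and 5547 ± 520 CPM in Mock (SD, n = 3). Summed over the LHCB1 copies, the level was 26142, 28099 and 31948 CPM in Mock and 25765, 27213 and 24632 CPM in CsCl (log2 -0.15, 95% interval -0.32 to 0.02, edgeR adjusted p = 0.422). The sum overlapped between the groups, and LHCB1.5, at 0 counts in every library, added nothing to it. LHCB2.1 (AT2G05100) and LHCB2.2 (AT2G05070), whose proteins form the mobile antenna trimers together with LHCB1, were at 4101 ± 365 and 3576 ± 265 CPM in Mock (SD, n = 3), with log2 fold changes of -0.09 and -0.06. Their sum had a log2 fold change of -0.08 (95% interval -0.23 to 0.08). LHCB2.3 (AT3G27690), a further gene of this family that is not among the 42, had 1501, 1449 and 1638 CPM in Mock and 1295, 1409 and 1302 CPM in CsCl, without overlap (log2 -0.20, edgeR unadjusted p = 0.0103 and adjusted p = 0.178). LHCB3 (AT5G54270), another protein of the trimers, was the 1 tested gene of this antenna above 0, at 4781 ± 712 CPM in Mock and 4949 ± 286 CPM in CsCl (log2 0.05, 95% interval -0.15 to 0.24).

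The minor antenna proteins link the trimers to the reaction centre. LHCB6 (AT1G15820) had 2407, 2441 and 3027 CPM in Mock and 2600, 2803 and 2432 CPM in CsCl, with a log2 fold change of -0.01 (95% interval -0.19 to 0.18). LHCB5 (AT4G10340) at 4788 ± 511 CPM in Mock, LHCB4.1 (AT5G01530) at 2722 ± 258 and LHCB4.2 (AT3G08940) at 1977 ± 257 (SD, n = 3) had log2 fold changes of -0.02, -0.06 and -0.03. All 4 overlapped between the groups, with Mock 3 the highest of the 6 libraries in each.

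LHCB1.5 (AT2G34420), the remaining LHCB1 gene, had 0 counts in every library, which in this table is no measure of its transcript level. All 1045 of its exon bases lie under genes annotated on the opposite strand, a long non-coding RNA (AT2G08665) over all 1045 and AT2G34410 over 99 of them. AT2G08665 also had 0 counts in every library. Of 1108 genes whose exons lie entirely under other counted genes, 1107 were at 0 in all libraries (99.9%), against 4221 of 22776 genes with no overlap (18.5%). Where all the overlapping genes were on the opposite strand, 937 of 938 were at 0. The strand setting of the counting is not given in the sources used here.

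**Figure D3:**
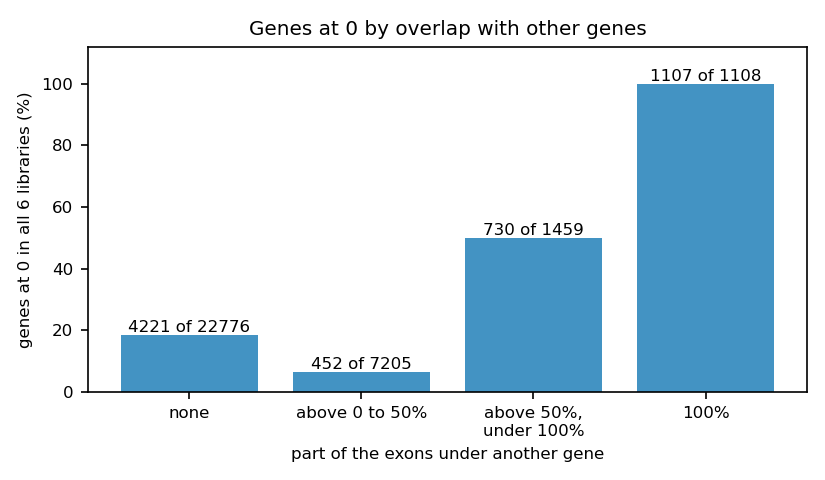
Percent of genes at 0 in all 6 libraries (y axis) by the part of their TAIR10.1 exon bases that lie under exons of another counted gene (x axis); numbers over the bars are genes at 0 of genes in the class. The bar at full overlap, the class of LHCB1.5, stands at 99.9% and that of genes with no overlap at 18.5%.

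Of the members, 14 of 42 have some exon bases under another gene, most of all LHCB1.5 (100%), followed by PSAG (61.4%), PSAE1 (34.1%), PSAH2 (24.8%) and LHCB6 (20.4%). Levels per length are therefore given per kilobase of exon free of other genes. This scale takes bases under a gene on either strand as not counted, which was not tested for the members. On that scale LHCB1.3 was the highest member in Mock at 13147 CPM per kilobase, followed by RBCS1A at 8722, RCA at 7223 and RBCS3B at 6724. The lowest were LFNR2 at 163 and PETE1 at 173 CPM per kilobase. These levels use all annotated exons, and for RBCS1B that is 1894 bases against 935 for RBCS2B, which lowers its level per length.

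**Figure D4:**
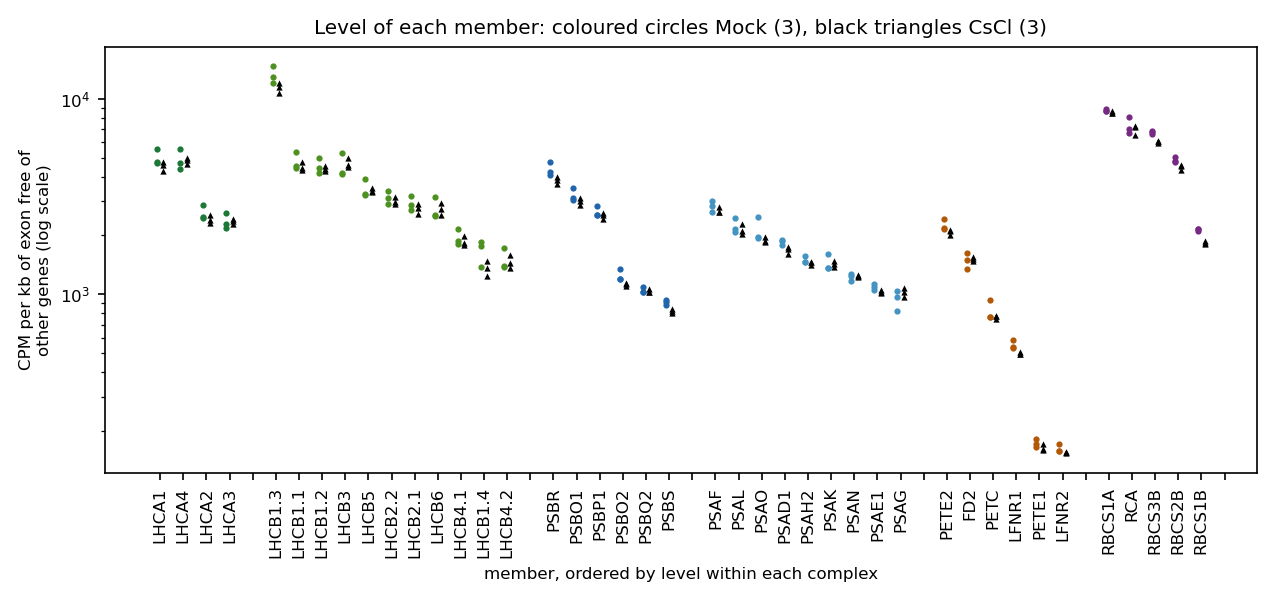
CPM per kilobase of exon free of other genes (y axis, log scale) for the 41 tested members (x axis, by complex and in order of level); coloured circles are the 3 Mock libraries and black triangles the 3 CsCl libraries. LHCB1.3 at 13147 on average in Mock is the highest member and LFNR2 at 163 the lowest, and the triangles lie close to the circles beside the range between genes.

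The photosystem I antenna had a median log2 fold change of -0.06 over its 4 genes, and none had an unadjusted p under 0.05. LHCA1 (AT3G54890) had 5937, 6036 and 7057 CPM in Mock and 5810, 6028 and 5433 CPM in CsCl (log2 -0.14, 95% interval -0.30 to 0.02, edgeR adjusted p = 0.437). CsCl 2 was below Mock 2 and above Mock 1, so the groups overlapped. LHCA3 (AT1G61520) had 3530, 3707 and 4225 CPM in Mock and 3845, 3936 and 3726 CPM in CsCl, with a log2 fold change of 0.01 (95% interval -0.15 to 0.16). LHCA2 (AT3G61470), at 3672 ± 320 CPM in Mock, and LHCA4 (AT3G47470), at 6053 ± 752 (SD, n = 3), had log2 fold changes of -0.10 and -0.02.

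Of the 9 photosystem I subunits 7 were below 0, with a median log2 fold change of -0.06 and none at an unadjusted p under 0.05. PSAO (AT1G08380), a small subunit on the side that docks the mobile antenna, had 1590, 1615 and 2032 CPM in Mock and 1531, 1604 and 1521 CPM in CsCl. Mock 3 stood well above the 5 other libraries (log2 -0.17, SE 0.0846, edgeR adjusted p = 0.386). PSAK (AT1G30380), an antenna-facing subunit, had 1046, 1045 and 1233 CPM in Mock and 1094, 1141 and 1065 CPM in CsCl (log2 -0.01, 95% interval -0.16 to 0.14).

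PSAD1 (AT4G02770) and PSAE1 (AT4G28750), stromal subunits that dock ferredoxin, did not overlap between the groups. PSAD1 had 2120, 2144 and 2015 CPM in Mock and 1929, 1982 and 1831 CPM in CsCl (log2 -0.13, edgeR adjusted p = 0.358). PSAE1 was at 576 ± 19.6 CPM in Mock and 541 ± 8.37 CPM in CsCl (SD, n = 3; log2 -0.09). Their other gene copies, which are not among the 42, had log2 fold changes of -0.16 for PSAD2 (edgeR adjusted p = 0.224) and -0.11 for PSAE2 (0.452).

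PSAG (AT1G55670), an antenna-facing subunit, had the highest log2 fold change of all members, 0.12 (95% interval -0.05 to 0.29, edgeR adjusted p = 0.523). It had 290, 314 and 247 CPM in Mock and 326, 309 and 292 CPM in CsCl, and unlike most members it was lowest in Mock 3. PSAF (AT1G31330), which docks plastocyanin, at 3395 ± 204 CPM in Mock, PSAL (AT4G12800) at 2543 ± 233 and PSAH2 (AT1G52230) at 789 ± 32.6 (SD, n = 3) had log2 fold changes of -0.07, -0.06 and -0.05. PSAN (AT5G64040), a lumenal subunit, was at 1198 ± 51.6 CPM in Mock and 1218 ± 14.4 CPM in CsCl (log2 0.02, 95% interval -0.10 to 0.15).

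Among the electron carriers 5 of 6 were below 0, with a median log2 fold change of -0.09. LFNR1 (AT5G66190), a ferredoxin-NADP+ reductase, had 706, 697 and 771 CPM in Mock and 651, 667 and 654 CPM in CsCl. The CsCl libraries were close together and all below Mock (log2 -0.14, SE 0.0600, 95% interval -0.27 to -0.01, edgeR adjusted p = 0.298). Its partner gene LFNR2 (AT1G20020) was at 298 ± 14.8 CPM in Mock and 285 ± 2.61 CPM in CsCl (SD, n = 3; log2 -0.07), also without overlap. FD2 (AT1G60950), the main leaf ferredoxin, had 1325, 1468 and 1596 CPM in Mock and 1487, 1462 and 1524 CPM in CsCl (log2 0.03, 95% interval -0.12 to 0.18).

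Plastocyanin is encoded by PETE1 (AT1G76100) and PETE2 (AT1G20340). PETE2 was at 3040 ± 194 CPM in Mock and 2810 ± 78.6 CPM in CsCl, and PETE1 at 182 ± 9.22 and 172 ± 6.16 CPM (SD, n = 3). Their log2 fold changes were -0.11 and -0.08, and the ratio of PETE2 to PETE1 counts was 17.0, 16.2 and 17.1 in Mock and 16.8, 16.0 and 16.2 in CsCl. The ranges of that ratio overlapped. PETC (AT4G03280), the Rieske iron-sulphur protein of the cytochrome b6f complex, was at 897 ± 106 CPM in Mock and 836 ± 13.1 CPM in CsCl (log2 -0.10, 95% interval -0.26 to 0.06).

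Other genes of the same pathways gave values of similar size. None of the 21 other photosystem, antenna and ATP synthase genes passed the test, with a median log2 fold change of -0.075. Of these, the smallest p belonged to PSB28, a photosystem II assembly factor (log2 -0.26, edgeR adjusted p = 0.0857). None of 15 Calvin cycle genes (median -0.037), 10 photorespiration and carbonic anhydrase genes (-0.035) and 13 chlorophyll synthesis genes (-0.066) passed either. The smallest p of the Calvin cycle genes belonged to GAPA, a glyceraldehyde-3-phosphate dehydrogenase (log2 0.15, edgeR adjusted p = 0.302). Among the photorespiration and carbonic anhydrase genes it was that of PGLP1, a phosphoglycolate phosphatase (log2 -0.09, edgeR adjusted p = 0.515). In chlorophyll synthesis it was that of DVR, a divinyl reductase (log2 -0.18, edgeR adjusted p = 0.145).

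Among 13 transcriptional regulators of photosynthesis genes none passed the test (median log2 fold change -0.044). The smallest p was that of GLK2, a transcription factor that activates antenna and chlorophyll genes. It had 200, 214 and 232 CPM in Mock and 190, 197 and 164 CPM in CsCl, without overlap (log2 -0.23, SE 0.0754, edgeR adjusted p = 0.165), while its partner GLK1 was at 109 ± 7.90 and 107 ± 10.2 CPM (SD, n = 3; log2 -0.03). None of 10 photoprotection genes (median 0.006) and 10 circadian clock genes (median 0.083, 8 above 0) passed. The smallest p values there were those of TAP38, a phosphatase of the antenna (log2 0.11, edgeR adjusted p = 0.391), and TOC1, an evening gene of the clock (log2 0.16, edgeR adjusted p = 0.414).

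Markers of other cell types were read in the same fit. Of 13 tested root markers 3 were called lower in CsCl (23.1%, against 1.32% of all genes) and 0 higher. The median log2 fold change of the 13 was -0.143, with 10 below 0 and 3 above. Those above were SHR (0.20), PLT1 (0.33) and PLT2 (0.16), none of them called. PYK10, a beta-glucosidase abundant in roots, fell from 5788 ± 171 to 4462 ± 299 CPM (SD, n = 3; log2 -0.38, edgeR adjusted p = 0.00840). CASP1 and CASP2, proteins of the root endodermal barrier, fell with log2 fold changes of -0.29 (edgeR adjusted p = 0.0468) and -0.47 (0.00537). The call of CASP1 was lost whichever library was left out, with adjusted p from 0.0625 to 0.247, and that of PYK10 without CsCl 2 (0.0873). The 14 root markers summed to 5872 to 6209 CPM in Mock and 4507 to 5057 CPM in CsCl, nearly all of it PYK10, and none was at 0 in every library. Without PYK10 the sum was 265, 268 and 268 CPM in Mock and 250, 233 and 238 CPM in CsCl. The 4 guard cell markers summed to 63.1 to 70.9 CPM in Mock and 66.1 to 68.8 CPM in CsCl, and none passed (median -0.038, smallest p for FAMA with log2 0.15 and edgeR adjusted p = 0.423). The part of tissue make-up in the values of the photosynthesis genes was not tested.

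**Figure D5:**
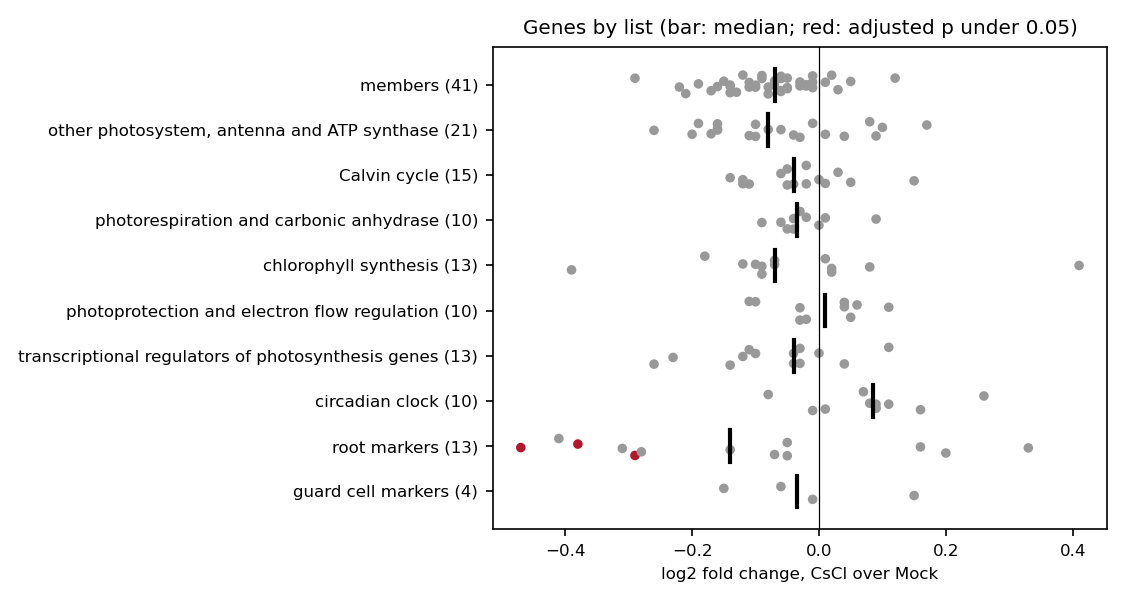
Log2 fold change (CsCl over Mock, x axis) of each tested gene in the photosynthesis members and 9 other lists (y axis, number tested in brackets); black bars are medians and red points have an edgeR adjusted p under 0.05. The 3 red points are root markers to the left of 0, and no photosynthesis member is red.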

How the data were processed

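Stranded mRNA libraries were sequenced from 3 Mock and 3 CsCl whole-plant samples, grouped by their treatment label. The authors deposited raw counts per gene, 1 file per library; FastQC, STAR, featureCounts, edgeR and TAIR10 are named without versions, per the submitters' processing notes. Not given in the sources used here are the annotation release, the strand setting and how reads with several matches were handled. Between 65.5% and 73.4% of counts from 1 to 50 were even, so mates of a pair may each have been counted.

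Counts were fitted with edgeR 4.0.16 in R 4.3.3 (filterByExpr, TMM factors of 0.961 to 1.03, glmQLFit, glmQLFTest) with group as the only term and Benjamini-Hochberg adjustment over 21005 genes, at a threshold of 0.05. The fit was tested on simulated data. CPM use TMM-scaled library sizes. Standard errors were taken from the coefficient and its F statistic, and 95% intervals use the t distribution at the fitted degrees of freedom. Loci, exons and sequences come from NCBI RefSeq's TAIR10.1 (alignments with Biopython 1.88 and MAFFT 7.526); all 42 members matched. Alternatives were other scaling factors and filters, DESeq2 1.42.0, limma-voom (limma 3.58.1), robust edgeR, a replicate block, leaving out each library or the organelle genes, and summed copies. The members and all lists were chosen with earlier results of these data known. Every member is named with its level; the one with the largest and the one with the smallest absolute log2 fold change of each complex, all at an unadjusted p under 0.05 and the most abundant per length have values in every library. PSAG, PSAD1, RBCS2B, RCA and GLK2 were added after their values were seen, as were LHCB2.3, PSAD2, PSAE2 and GLK1. In other lists the genes past the test, or else the smallest p, are named.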

Additional observations from a re-analysis of the deposited data

How the results depend on the processing

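No setting called a member higher. The count of members called lower, 0 in the edgeR fit, was 2 with no filter on low counts (LHCB1.4 with adjusted p = 0.0293 and RBCS1B with 0.0360), 2 with DESeq2, 1 with limma-voom and between 0 and 1 when single libraries were left out. The median of the members lay between -0.115 and -0.024 when single libraries were left out. Over all genes, the 177 higher calls became 301 with no filter, 80 at an adjusted p under 0.01 and 89 to 231 with a library left out. The 277 lower calls became 180 with no scaling factors, 518 with no filter, 106 at an adjusted p under 0.01 and 90 to 330 with a library left out. The 3 lower calls in the other lists became 5 with no filter, 6 with DESeq2, 1 with the replicate block and 1 to 3 with a library left out. CASP1 also lost its call with upper-quartile factors (adjusted p = 0.0627) and with no scaling factors (0.125). With organelle genes left out the share of the members was 15.5% in Mock and 15.0% in CsCl, against 15.2% and 14.7% with them. Samples with the same number in Mock and CsCl did not deviate together (correlations of -0.113, 0.032 and -0.048), so the numbers were not taken as pairs; with the replicate block the median of the members was -0.071, 2 members had an unadjusted p under 0.05, 0 passed the test, and PYK10 and CASP1 lost their calls (adjusted p = 0.0556 and 0.0662). Of 704 values of single genes under alternatives, 33 changed sign, all of them uncalled members near 0. With upper-quartile factors the log2 fold changes were 0 for LHCA4 and 0.01 for LHCB6, PSBQ2 and PSAK. With no scaling factors they were 0.03 for LHCA4, LHCB6, PSBQ2 and PSAK, 0.02 for LHCB5 and 0.01 for LHCB4.2 and RBCS1A. With single libraries left out they ranged from -0.05 to 0.08 for LHCA3, -0.09 to 0.08 for LHCA4 and LHCB4.2, -0.13 to 0.01 for LHCB1.1, -0.10 to 0.03 for LHCB1.2, -0.02 to 0.18 for LHCB3, -0.12 to 0.01 for LHCB4.1, -0.07 to 0.07 for LHCB5, -0.07 to 0.10 for LHCB6, -0.03 to 0.02 for PSBQ2, -0.06 to 0.07 for PSAK, -0.11 to 0.02 for PSAL, -0.01 to 0.05 for PSAN, -0.04 to 0.09 for FD2 and -0.11 to 0.03 for RCA. The cause of these changes was not tested. Counts were high for every tested member (lowest mean 182 CPM in Mock), so their intervals reflect spread between libraries more than counting error. The fit takes part of that spread from all genes tested. An interval is therefore not set by the 3 libraries per group of that member alone.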
